A study of Mus musculus with 18 samples.

Results

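The 10 genes described here, Igfbp4, Dapl1, Ly6c1, Cnn3, Ggt5, Dapk1, Emid1, Zfp318, Tec and Atp1b1, are less-known genes selected on the effector and resting counts of this study, as strongly lower in effector than in resting mouse regulatory T cells (Treg). They are 10 of 23420 genes in the table, and all 10 were among the 10630 genes with enough counts to test. Since those values chose them, the difference between the states is given below as a description with no test, and tests are given for differences between genotypes. The RNA-seq libraries came from sorted Treg of 3 genotypes, written in the labels as FCre x C1fl/fl, FCre x C1fl/+ and FCre x C1+/+ and called fl/fl, fl/+ and +/+ below. All 3 genotypes carry FCre, whose promoter the labels do not spell out. Each genotype was sorted as effector and as resting cells in batches 1 to 3, which makes 6 groups of 3 libraries and 18 libraries in all. No source used here gives the animals' age or sex, the tissue, or the surface markers used for sorting. The labels do not say that the 3 libraries of a group came from separate animals, so p-values measure the spread between these libraries, which may be technical.

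Regulatory T cells restrain immune responses and depend on the transcription factor Foxp3. Resting Treg circulate through lymphoid organs and carry homing molecules such as Ccr7, and after antigen receptor stimulation they can become effector Treg, which carry activation genes such as Icos, Ctla4 and Klrg1. The genes described here have little shared biochemistry. Igfbp4 is a secreted protein that binds insulin-like growth factors, Emid1 is an EMI domain protein, Ly6c1 is a lipid-anchored surface protein of the Ly6 family and Ggt5 is a cell-surface enzyme that converts leukotriene C4 to leukotriene D4. Atp1b1 is a beta subunit of the sodium pump. Cnn3 is an actin-binding calponin, Dapk1 is a calmodulin-regulated kinase linked to cell death, and Dapl1 is a small relative of the death-associated protein Dap. Tec is a tyrosine kinase of antigen receptor signalling, and Zfp318 is a nuclear zinc finger protein that mouse B cells need to make IgD.

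The 10 genes lie on 9 chromosomes, with Igfbp4 and Emid1 both on chromosome 11, and all are protein-coding genes in GENCODE M21 (GRCm38, the assembly also called mm10). Upstream sequences were taken from RefSeq promoter windows on GRCm38.p6, which matched 9 of the 10 genes, with Ggt5 the exception. The sequences of 4 members are shown because these are the genes with a TATAAA at the usual distance from the start (Igfbp4 and Dapl1) and the genes called higher in fl/fl than in +/+ effector cells in all 27 fits run (Cnn3 and Atp1b1). Each runs 5′ to 3′ on the gene's strand and ends at the base before the GENCODE start. For Cnn3 this left out the last 44 bases of the RefSeq window, so 206 bases are shown. The Igfbp4 window is chr11:99040994-99041243 on the plus strand, that of Dapl1 is chr2:59484403-59484652 on the plus strand, that of Cnn3 is chr3:121426291-121426496 on the plus strand and that of Atp1b1 is chr1:164458356-164458605 on the minus strand. Capitals mark matches to TATAAA, the letters of the TATA box, to CCAAT, which NF-Y binds, to GTAAACA, a FOXO motif, and to CCACACCC, a KLF motif, on either strand, and no capital stretches overlap.
Igfbp4: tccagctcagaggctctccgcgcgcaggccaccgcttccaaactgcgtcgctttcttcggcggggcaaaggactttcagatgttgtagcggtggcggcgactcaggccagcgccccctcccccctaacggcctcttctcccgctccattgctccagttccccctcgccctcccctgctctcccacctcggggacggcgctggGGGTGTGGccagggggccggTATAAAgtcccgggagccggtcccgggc
Dapl1: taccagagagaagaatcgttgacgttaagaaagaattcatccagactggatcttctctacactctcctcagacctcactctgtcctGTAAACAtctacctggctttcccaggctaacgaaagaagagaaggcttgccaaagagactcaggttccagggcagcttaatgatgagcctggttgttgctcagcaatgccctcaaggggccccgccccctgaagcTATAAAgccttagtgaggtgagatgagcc
Cnn3: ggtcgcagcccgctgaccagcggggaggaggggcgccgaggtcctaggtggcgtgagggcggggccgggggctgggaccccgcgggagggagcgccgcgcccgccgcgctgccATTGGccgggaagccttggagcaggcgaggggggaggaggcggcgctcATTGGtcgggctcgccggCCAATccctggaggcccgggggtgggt
Atp1b1: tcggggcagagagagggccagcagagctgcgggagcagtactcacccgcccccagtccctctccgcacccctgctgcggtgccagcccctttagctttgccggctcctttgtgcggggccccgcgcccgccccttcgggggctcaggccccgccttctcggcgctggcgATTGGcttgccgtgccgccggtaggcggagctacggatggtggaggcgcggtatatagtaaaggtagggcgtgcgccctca

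The TATAAA of Igfbp4 began 28 bases and that of Dapl1 29 bases before the RefSeq start. A TATAAA on the gene's own strand that began 24 to 36 bases before the start was present in these 2 of 9 members, and in 1.8% of all 32851 promoter windows. Ly6c1 also held TATAAA, but 143 bases before its start. The 250 bases before the RefSeq start held CCAAT in 3 of the 9 members, Ly6c1, Cnn3 and Atp1b1, against 33.8% of all windows. Cnn3 held it at 3 places. The FOXO motif was found in Dapl1 only and the KLF motif in Igfbp4 and Zfp318, and each was present in 3.2% of all windows. ATCAAAG, a TCF/LEF motif, and TGANTCA, an AP-1 motif, were found in 0 of 9 members, with 3.2% and 6.7% of all windows holding them. These matches describe the letters of the windows and say nothing of whether a factor binds there.

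Library totals ran from 1658073 to 5756903 expected counts. Foxp3 was detected in all 18 libraries, at 211 to 479 CPM (counts divided by the scaled library size). On the first principal component (56.1% of the variance of the 1000 most variable genes) fl/fl effector libraries stood at 28.2, 2.2 and 11.6, and the other effector libraries at 24.8 to 40.9. Resting libraries lay between -37.3 and -22.3, apart from the first fl/fl one at -12.6. Markers of other cells were low: the myeloid gene Csf1r was at 0 in 12 of 18 libraries and at most at 0.862 CPM, and the NK cell gene Ncr1 at 0 in 14.

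The members covered a wide range of levels, given here as FPKM, the unit that scales fragments by gene length and depth. In resting cells Igfbp4 averaged 293 FPKM in fl/fl, 272 FPKM in fl/+ and 303 FPKM in +/+, and Ly6c1 336 FPKM in fl/fl, 259 FPKM in fl/+ and 238 FPKM in +/+. Dapl1, Cnn3 and Atp1b1 stood between 20.6 and 38.2 FPKM in every resting group. Tec averaged 6.19 to 10.5 FPKM and Emid1 4.09 to 4.59 FPKM over the 3 resting groups. Ggt5, Dapk1 and Zfp318 were the lowest, at 1.21 to 2.66 FPKM in resting cells.

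**Figure D1:**
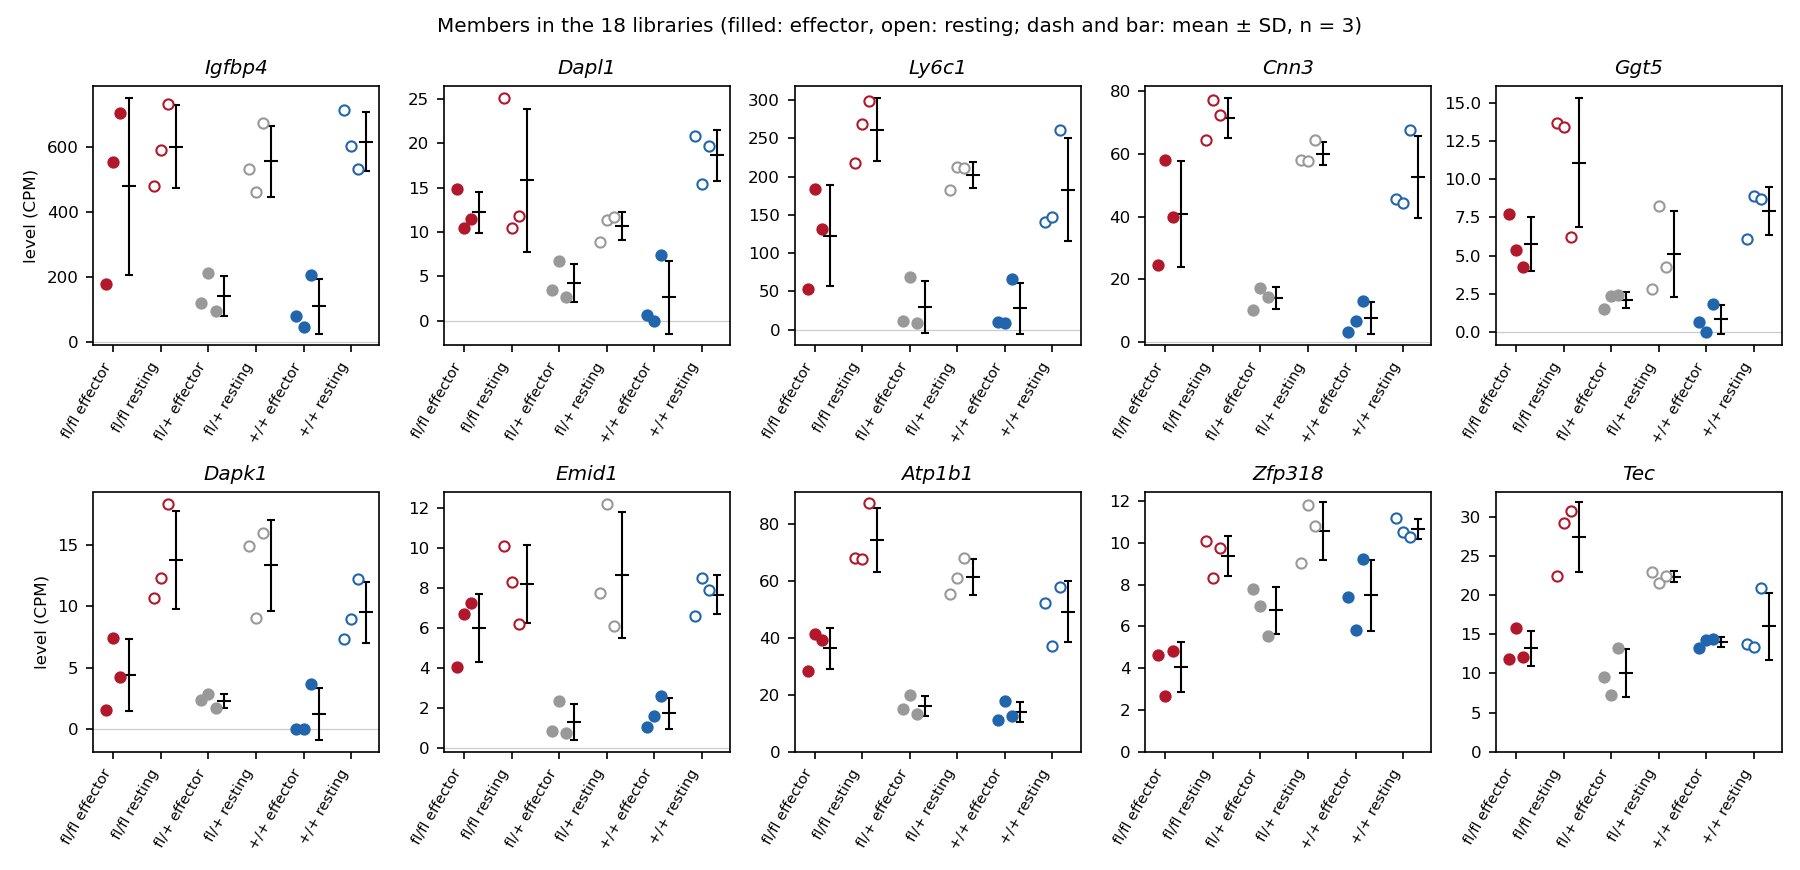
Level of each of the 10 genes in CPM (vertical axis, linear, each panel with its own scale) in the 18 libraries, by genotype and state; filled points are effector and open points resting libraries, and the dash and bar beside them are the mean and SD of 3 libraries. In 8 panels fl/fl effector libraries lie mostly above the other effector libraries; Zfp318 is lowest in fl/fl effector libraries, and Tec in +/+ cells has about the same level in both states.

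The plot of levels by library shows 2 kinds of pattern among the 10 genes. Igfbp4, Dapl1, Ly6c1, Cnn3, Ggt5, Dapk1, Emid1 and Atp1b1 were much lower in effector than in resting cells of +/+. They were also lower in fl/+, and least so in fl/fl. For Ggt5, effector level was 40.8% of resting in fl/+ and 52% in fl/fl. The log2 state differences in fl/fl and fl/+ lay apart by less than the SE for Ggt5 and Dapk1. Zfp318 and Tec showed smaller differences between the states in +/+ and did not share that order of genotypes. Counts come from bulk samples, in which fewer cells of a type and less RNA per cell cannot be told apart.

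Igfbp4 (chr11:99041244-99054392, plus strand) had 177, 555 and 705 CPM in fl/fl effector libraries and 479, 590 and 733 CPM in fl/fl resting libraries. It had 121, 212 and 95.1 CPM in fl/+ effector and 533, 460 and 675 CPM in fl/+ resting libraries. In +/+ it had 78.6, 46.5 and 206 CPM in effector and 714, 603 and 532 CPM in resting libraries. The states did not overlap in fl/+ or +/+, and they overlapped in fl/fl, where only the first effector library was low. Mean effector level was 79.7% of the resting level in fl/fl, 25.7% in fl/+ and 17.9% in +/+. On the log2 scale the effector minus resting difference was -0.34 (SE 0.41) in fl/fl, -1.96 (SE 0.43) in fl/+ and -2.47 (SE 0.45) in +/+. The fl/fl value ran from -0.72 to 0.07 when each library was left out in turn, and turned to 0.07 without the first fl/fl effector library.

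Emid1 (chr11:5106265-5152257, minus strand), the other member that encodes a secreted protein, had 4.05, 6.71 and 7.25 CPM in fl/fl effector and 10.1, 8.3 and 6.2 CPM in fl/fl resting libraries. In fl/+ it had 0.828, 2.33 and 0.726 CPM in effector and 7.75, 12.2 and 6.1 CPM in resting libraries. In +/+ it had 1.06, 1.59 and 2.59 CPM in effector and 6.6, 8.51 and 7.9 CPM in resting libraries. The 3 resting groups overlapped one another, and fl/fl effector libraries overlapped fl/fl resting libraries but none of the other effector libraries. Effector level was 73.1% of resting in fl/fl, 14.8% in fl/+ and 22.7% in +/+.

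Among the surface proteins, Ly6c1 (chr15:75044018-75048830, minus strand) had 53.8, 184 and 131 CPM in fl/fl effector, 11.1, 68.9 and 9.43 CPM in fl/+ effector and 9.51, 8.46 and 65.8 CPM in +/+ effector libraries. Resting libraries held 217, 268 and 299 CPM in fl/fl, 182, 213 and 211 CPM in fl/+, and 141, 147 and 261 CPM in +/+. Each effector group had a library several times away from the other 2: the first was low in fl/fl, the second high in fl/+ and the third high in +/+. No effector library reached a resting library of its genotype. Its SD within groups, 1.01 on the log2 CPM scale, was above that of all 300 tested genes nearest to it in level. Igfbp4 also varied more between libraries of a group (SD 0.69) than 99.7% of its 300 nearest genes, and Zfp318 less (SD 0.25, percentile 6.7). Cnn3 (SD 0.49, percentile 98), Dapl1 (SD 0.89, percentile 96.7) and Dapk1 (SD 0.84, percentile 95.3) were also among the more variable genes of their level.

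Ly6c1 has a near copy, Ly6c2, on the same chromosome, and their longest transcripts were 97.6% identical over 822 aligned bases. Of the 50-base stretches of Ly6c1, 31.7% also occur in Ly6c2, and 55.1% of its 25-base stretches, so the counting could split reads between the genes and the Ly6c1 values are uncertain; the size of that error was not measured. Ly6c2 had 29.5, 1.68 and 0 CPM in fl/fl effector libraries and 0.646 to 7.75 CPM in the other 15 libraries. The 29.5 CPM stood in the fl/fl effector library with the least Ly6c1 of its group, which also had the highest summed level of 6 CD8 and NK cell markers, 88.8 CPM, against 40.6 and 41.7 CPM in the other 2. Of that list, Cd8a reached at most 3.17 CPM and Ncr1 at most 1.16 CPM in any library. The list's sum was 48 to 60.2 CPM in +/+ effector and 29.7 to 35.1 CPM in +/+ resting libraries. In fl/+ it was 45.1 to 50.3 CPM in effector and 26 to 31.7 CPM in resting libraries. Whether CD8 or NK cells were present, and their part in the Ly6c values, was not tested.

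Atp1b1 (chr1:164437109-164458355, minus strand) had 28.3, 41.6 and 39.3 CPM in fl/fl effector, 15.1, 19.9 and 13.3 CPM in fl/+ effector and 11.2, 18 and 12.6 CPM in +/+ effector libraries. In resting libraries it had 68.3, 67.8 and 87.4 CPM in fl/fl, 55.6, 61 and 68.1 CPM in fl/+ and 52.5, 37.3 and 58 CPM in +/+. All effector libraries of a genotype lay below all its resting libraries, and fl/fl effector libraries lay above every other effector library. Effector level was 48.9% of resting in fl/fl, 26.1% in fl/+ and 28.2% in +/+. Exons of Atp1b1 overlap those of Nme7 on the other strand, and no source used here gives the strand setting of the counting, so reads of Nme7 could be counted with it.

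Ggt5 (chr10:75589340-75617200, plus strand) was a low gene, with 7.71, 5.37 and 4.23 CPM in fl/fl effector, 1.49, 2.33 and 2.42 CPM in fl/+ effector and 0.634, 0 and 1.85 CPM in +/+ effector libraries. Resting levels were 13.7, 13.4 and 6.2 CPM in fl/fl, 2.8, 8.26 and 4.23 CPM in fl/+ and 6.09, 8.92 and 8.69 CPM in +/+. The +/+ effector values rest on 8 expected counts in all 3 libraries, and a count of 0 in the second of them allows up to 1.58 CPM (3 counts, counting error only). All fl/fl effector libraries lay above the other effector libraries, and they overlapped fl/fl resting libraries, while the states did not overlap in fl/+ or +/+. Effector level was 52% of resting in fl/fl, 40.8% in fl/+ and 10.5% in +/+.

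Of the proteins inside the cell, Cnn3 (chr3:121426497-121458207, plus strand) had 24.5, 58 and 39.9 CPM in fl/fl effector, 10.3, 17.3 and 14.5 CPM in fl/+ effector and 3.38, 6.87 and 13.3 CPM in +/+ effector libraries. In resting libraries it had 64.4, 77.2 and 72.3 CPM in fl/fl, 57.9, 57.8 and 64.3 CPM in fl/+ and 45.7, 44.2 and 67.5 CPM in +/+. The states did not overlap in any genotype, and fl/fl effector libraries lay above all other effector libraries. The effector minus resting difference was -0.83 (SE 0.29) in fl/fl, -2.11 (SE 0.31) in fl/+ and -2.83 (SE 0.36) in +/+ on the log2 scale.

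Dapk1 (chr13:60601947-60763191, plus strand) had 1.54, 7.38 and 4.23 CPM in fl/fl effector, 2.32, 2.85 and 1.69 CPM in fl/+ effector and 0, 0 and 3.7 CPM in +/+ effector libraries. The 2 zeros allow up to 0.632 and 1.58 CPM. Resting levels were 10.7, 12.3 and 18.3 CPM in fl/fl, 14.9, 9.05 and 16 CPM in fl/+ and 7.36, 8.92 and 12.2 CPM in +/+. The states did not overlap in any genotype, and fl/fl effector libraries overlapped the other effector groups. Dapl1 (chr2:59484653-59505020, plus strand) had 14.8, 10.4 and 11.5 CPM in fl/fl effector, 3.48, 6.73 and 2.66 CPM in fl/+ effector and 0.634, 0 and 7.39 CPM in +/+ effector libraries. Its resting levels were 25.1, 10.5 and 11.8 CPM in fl/fl, 8.83, 11.4 and 11.7 CPM in fl/+ and 20.8, 15.4 and 19.7 CPM in +/+. All fl/fl effector libraries lay above the other effector libraries, and the states did not overlap in fl/+ or +/+. In fl/fl the states overlapped: the effector minus resting difference was -0.35 (SE 0.49), and without the first fl/fl resting library it was 0.16, the highest of the values from -0.55 to 0.16 with each library left out.

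The remaining members, Zfp318 and Tec, went another way. Zfp318 (chr17:46383731-46420920, plus strand) had 4.63, 2.68 and 4.84 CPM in fl/fl effector, 7.78, 6.99 and 5.56 CPM in fl/+ effector and 7.39, 5.81 and 9.24 CPM in +/+ effector libraries. Resting libraries held 10.1, 8.3 and 9.74 CPM in fl/fl, 9.05, 11.8 and 10.8 CPM in fl/+ and 11.2, 10.5 and 10.3 CPM in +/+. Every fl/fl effector library lay below every other effector library, and effector level was 43.1% of resting in fl/fl, 64% in fl/+ and 69.9% in +/+. Tec (chr5:72755716-72868483, minus strand) had 11.8, 15.8 and 12.1 CPM in fl/fl effector, 9.6, 7.25 and 13.3 CPM in fl/+ effector and 13.3, 14.3 and 14.4 CPM in +/+ effector libraries. Its resting levels were 22.4, 29.2 and 30.7 CPM in fl/fl, 23, 21.6 and 22.5 CPM in fl/+ and 13.7, 13.4 and 20.9 CPM in +/+. The states of +/+ overlapped, with effector level at 87.5% of resting, against 48.2% in fl/fl and 45.1% in fl/+.

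The description of the genes as restricted to resting Treg held only in part. Each member had counts in effector libraries of every genotype, and in fl/fl effector cells the mean level of all 10 was at least 31.7% of the resting level. Ranked from the most negative effector minus resting difference among 10630 genes, 8 members stood between 12 and 55 in +/+, while Zfp318 stood at 994 and Tec at 3166. In all, 6 members in fl/fl, 10 in fl/+ and 9 in +/+ (all but Tec) had every effector library below every resting library, as had 9.98%, 16.1% and 15.7% of all genes in the same order of genotypes, and nothing is read from these counts since the same values chose the genes. In fl/fl the ranks ran from 12 for Dapk1 to 1228 for Dapl1 and 1261 for Igfbp4, with Zfp318 at 51 and Tec at 82. The genes are therefore called by their names here, as lower in effector cells to differing degrees and not as absent from them.

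**Figure D2:**
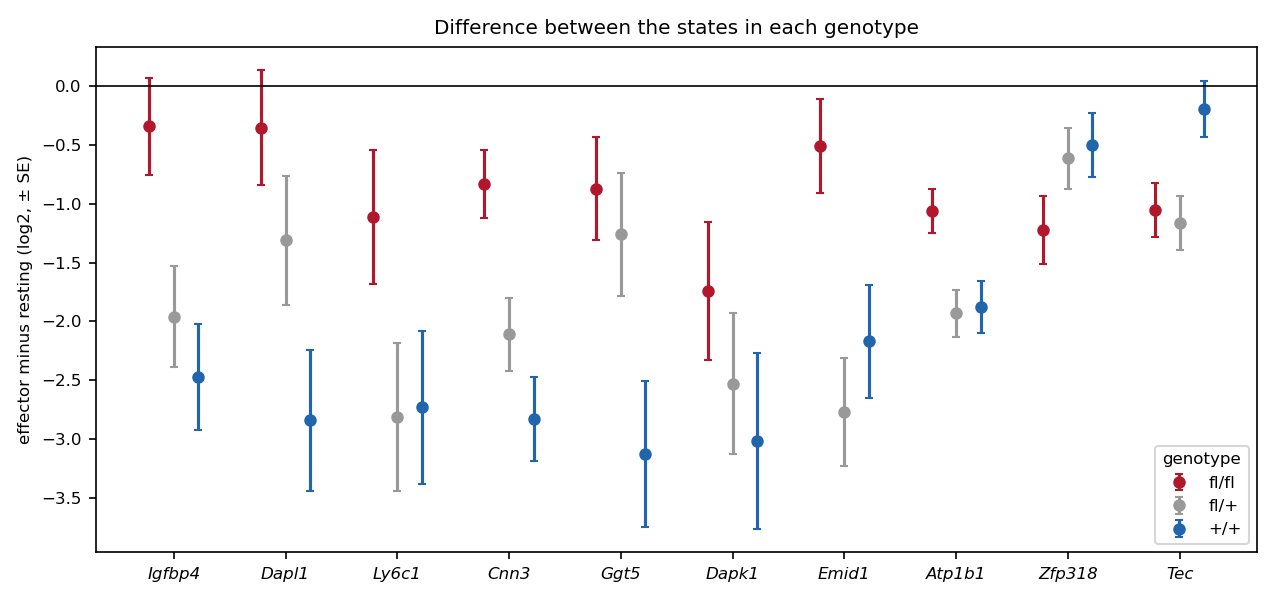
Effector minus resting difference of each gene on the log2 scale (vertical axis) in fl/fl, fl/+ and +/+, with the standard error of the fit as bars (3 libraries a group). For Igfbp4 the value is -0.34 in fl/fl and -2.47 in +/+; for Zfp318 the fl/fl value is the lowest, and for Tec the +/+ value, -0.19, is nearest to 0.

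Between fl/fl and +/+ the difference between the states differed most, in log2 size, for Dapl1, Ggt5, Igfbp4 and Cnn3. As values with no test, the state difference in fl/fl minus that in +/+ was 2.49 (SE 0.79) for Dapl1, 2.26 (SE 0.79) for Ggt5, 2.13 (SE 0.6) for Igfbp4 and 2 (SE 0.47) for Cnn3 on the log2 scale. In Atp1b1 it was 0.82 (SE 0.3), and it was -0.72 (SE 0.4) for Zfp318 and -0.86 (SE 0.33) for Tec. For fl/fl minus fl/+ it ran from -0.61 (SE 0.39) for Zfp318 to 2.26 (SE 0.61) for Emid1. It was within 1 SE of 0 for Ggt5 (0.39, SE 0.69), Dapk1 (0.79, SE 0.85) and Tec (0.1, SE 0.32). For fl/+ minus +/+ the same value was within 1 SE of 0 for Igfbp4, Ly6c1, Dapk1, Emid1, Zfp318 and Atp1b1, and was 1.87 (SE 0.84) for Ggt5 and -0.97 (SE 0.33) for Tec.

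The mean of both states sets fl/fl against +/+ without taking a difference between the states, but it holds the effector libraries whose low values chose the genes, so it is not independent of the choice. For Cnn3 the difference was 2.45 in effector and 0.45 in resting cells, and for Ggt5 2.76 and 0.5. The fit also treats the effector and resting libraries of the same genotype and batch number as independent. Their deviations from the group means correlated with a mean r of 0.25, so SEs and p-values over the mean may be too small. Over the mean, 3 of the 10 genes were higher in fl/fl at an adjusted p under 0.05 (Cnn3, Ggt5 and Atp1b1), against 2.97% of all genes called and 1.58% called higher. Atp1b1 averaged 55.5 CPM in fl/fl and 31.6 CPM in +/+ (log2 difference 1.01, SE 0.15, adjusted p = 0.000541). Cnn3 averaged 56.1 CPM in fl/fl and 30.1 CPM in +/+ (1.45, SE 0.23, adjusted p = 0.00137). Ggt5 averaged 8.43 CPM in fl/fl and 4.36 CPM in +/+ (1.63, SE 0.39, adjusted p = 0.021). The median difference of the 10 members was 1.02 against 0 over all genes tested, and 9 of 10 were positive, with Zfp318 at -0.54 (SE 0.2, adjusted p = 0.169). With the batch number as a block, Igfbp4 (adjusted p = 0.0463) and Ly6c1 (adjusted p = 0.0423) also passed. These 2 also passed without fl/fl effector replicate 1, Ly6c1 without fl/+ effector replicate 2, and both with Dapl1 and Dapk1 without +/+ effector replicate 3 or with no filter on low counts. With no filter, prior degrees of freedom were estimated as infinite, so p-values between genotypes, here and below, leave out a gene's own spread. Cnn3 and Atp1b1 passed in all 27 fits run for this comparison. Ggt5 passed in 22, and missed on log2(FPKM + 1) and without +/+ resting replicate 1, +/+ effector replicate 1 or 2, or fl/fl resting replicate 2, with adjusted p up to 0.107 when a library was left out.

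Within effector cells, the genotype comparison shares its libraries with the difference that chose the genes, so a member that was low in +/+ effector libraries by chance would be favoured. In fl/fl against +/+ effector cells 4 of 10 genes were called, all higher in fl/fl, against 2.81% of all genes called and 1.17% called higher. Cnn3 averaged 40.8 CPM in fl/fl and 7.85 CPM in +/+ effector cells (log2 difference 2.45, SE 0.37, adjusted p = 0.0021), and Atp1b1 averaged 36.4 CPM in fl/fl and 13.9 CPM in +/+ (1.42, SE 0.23, adjusted p = 0.00283). Igfbp4 averaged 479 CPM in fl/fl and 110 CPM in +/+ (2.09, SE 0.44, adjusted p = 0.0144). Ggt5 averaged 5.77 CPM in fl/fl and 0.827 CPM in +/+ (2.76, SE 0.63, adjusted p = 0.0215). Dapl1 (2.25, adjusted p = 0.0535), Emid1 (1.77, adjusted p = 0.0543), Ly6c1 (2.14, adjusted p = 0.0818), Dapk1 (1.84, adjusted p = 0.25), Zfp318 (-0.9, adjusted p = 0.105) and Tec (-0.08, adjusted p = 0.918) missed the threshold. With the batch number as a block, 7 genes passed, the others being Dapl1 (adjusted p = 0.0418), Ly6c1 (0.0354) and Emid1 (0.0398). Without +/+ effector replicate 1 or 2, or without fl/fl effector replicate 2, only Cnn3 and Atp1b1 passed; without fl/fl effector replicate 3 these and Ggt5 passed. Without +/+ effector replicate 3, which had the highest level of 9 of the 10 genes in its group, 8 passed, all but Zfp318 and Tec, and the same 8 passed with no filter on low counts. Ly6c1 and Emid1 also passed without fl/fl effector replicate 1 or fl/+ effector replicate 2, and Dapl1 without fl/fl resting replicate 1. DESeq2 also called Dapl1 and Emid1, limma on log2(FPKM + 1) also Dapl1, Ly6c1 and Emid1, and limma on log2(FPKM + 0.1) also Emid1.

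**Figure D3:**
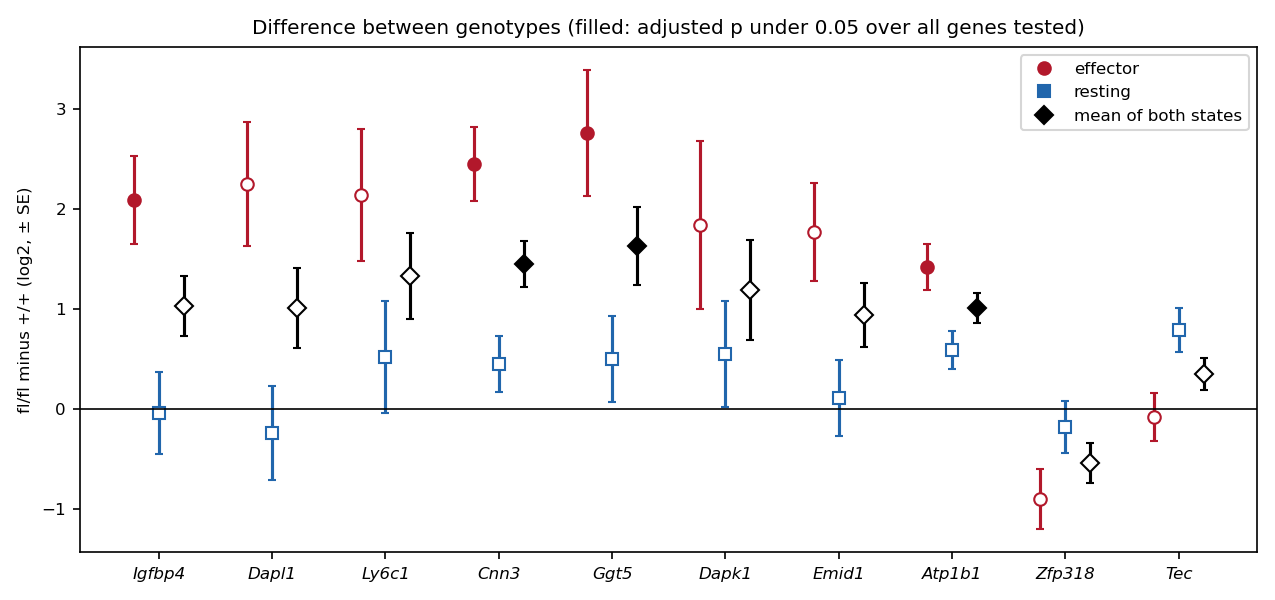
Difference between fl/fl and +/+ on the log2 scale (vertical axis, with standard errors) for each gene in effector cells, in resting cells and over the mean of both states; filled symbols passed an adjusted p under 0.05 over all 10630 genes tested. Filled effector symbols are Igfbp4, Cnn3, Ggt5 and Atp1b1, filled mean symbols Cnn3, Ggt5 and Atp1b1, and no resting symbol is filled.

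Counted by library, Dapl1, Cnn3, Ggt5, Emid1 and Atp1b1 were higher in every fl/fl than in every +/+ effector library, as were 10.3% of all genes, and Zfp318 was lower in every one, as were 10.2%. The median difference of the members was 1.96 against 0.01 over all genes. Against fl/+ effector libraries, a comparison that shares the fl/fl libraries, these 5 genes were also higher and Zfp318 lower in every fl/fl library, where 7.88% and 8.45% of all genes were.

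In fl/fl against fl/+ effector cells, which share the fl/fl libraries with the comparison above, Cnn3, Emid1 and Atp1b1 were called higher, 3 of 10 genes against 0.677% of all genes called and 0.367% called higher. These effector libraries are also among those whose low values chose the genes, so the share over all genes is not an independent background. Emid1 averaged 6 CPM in fl/fl and 1.29 CPM in fl/+ (log2 difference 2.18, SE 0.48, adjusted p = 0.0365). Cnn3 averaged 40.8 CPM in fl/fl and 14 CPM in fl/+ (1.54, SE 0.32, adjusted p = 0.0356), and Atp1b1 36.4 CPM in fl/fl and 16.1 CPM in fl/+ (1.16, SE 0.21, adjusted p = 0.0248). With the block Igfbp4 also passed (adjusted p = 0.0415). No member passed without fl/+ effector replicate 1 or 3, or without fl/fl effector replicate 2 or 3, where 3 to 15 of all genes were called. Igfbp4 and Ly6c1 also passed without fl/fl effector replicate 1 or fl/+ effector replicate 2, and Igfbp4 without +/+ effector replicate 3. Cnn3 missed the threshold with limma on log2(FPKM + 1) (adjusted p = 0.0614) and on log2(FPKM + 0.1) (adjusted p = 0.109), and with no filter 7 members passed, all but Dapk1, Zfp318 and Tec.

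The limits given for the mean of both states against +/+, from the choice of genes and the paired libraries, hold for fl/+ too. Over the mean of both states, fl/fl against fl/+, only Atp1b1 was called (0.72, SE 0.14, adjusted p = 0.0258), against 0.48% of all genes called and 0.198% called higher. It missed the threshold on leaving out any 1 of 7 libraries (fl/+ resting replicate 1 or 2, fl/+ effector replicate 1 or 3, fl/fl resting replicate 3, fl/fl effector replicate 2 or 3), with adjusted p from 0.0534 to 0.096, and with limma on log2(FPKM + 0.1) (adjusted p = 0.0512). Cnn3 passed too with the block (adjusted p = 0.0137) and without +/+ effector replicate 1 or 3. It also passed without fl/fl effector replicate 1, together with Igfbp4, and without fl/+ effector replicate 2, together with Ly6c1 and Emid1. DESeq2 also called Cnn3 (adjusted p = 0.0051) and Ggt5 (adjusted p = 0.0161), and with no filter 6 members passed, Dapl1, Ly6c1, Igfbp4, Ggt5, Cnn3 and Atp1b1.

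In resting cells edgeR called no member between genotypes. For fl/fl against +/+ resting cells, where 0.696% of all genes were called, 0 of 10 members were called by edgeR, DESeq2 or limma, and 2 had an unadjusted p under 0.05, as had 8.21% of all genes. The 2 were Tec, at 27.4 CPM in fl/fl and 16 CPM in +/+ (log2 difference 0.79, SE 0.22, adjusted p = 0.137), and Atp1b1, at 74.5 CPM in fl/fl and 49.3 CPM in +/+ (0.59, SE 0.19, adjusted p = 0.242). Both were higher in every fl/fl than in every +/+ resting library, as were 6.11% of all genes, and Zfp318 was lower in every one, as were 5.46%. Tec was called without +/+ resting replicate 3, its highest +/+ resting library, and Ly6c1 and Atp1b1 were called with no filter on low counts.

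In the other comparisons, with the filter on low counts, the members gave no call either. For fl/fl against fl/+ resting cells (0.0282% of all genes called) edgeR, DESeq2 and limma called 0 members, and 1, Ggt5, had an unadjusted p under 0.05, as had 4.83% of all genes. For fl/+ against +/+ effector cells (0.00941% called) the same tools called 0, and 1, Cnn3, had an unadjusted p under 0.05, as had 5.47% of all genes. Cnn3 averaged 14 CPM in fl/+ and 7.85 CPM in +/+ effector cells (0.91, SE 0.39, adjusted p = 0.819), and it was called by edgeR with no filter on low counts (adjusted p = 0.0105). For fl/+ against +/+ resting cells (0.0847% called) the same tools called 0, and 1, Tec, had an unadjusted p under 0.05, as had 6.29% of all genes, at 22.4 CPM in fl/+ and 16 CPM in +/+ (0.5, SE 0.23, adjusted p = 0.736).

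Between the batches, tested within the 6 groups, edgeR called 0 members and 1.65% of all genes, DESeq2 and limma also called 0 members, and 2 members had an unadjusted p under 0.05, as had 16.3% of all genes. These were Cnn3 (unadjusted p = 0.0141) and Ly6c1 (unadjusted p = 0.0336). Cnn3 was higher than in batch 1 by 0.46 in batch 2 and by 0.52 in batch 3 on the log2 scale, and Ly6c1 by 0.89 and 0.88. With no filter on low counts, edgeR called Igfbp4 (adjusted p = 1.61e-12), Ly6c1 (3.04e-25) and Cnn3 (0.00196) between the batches. With the filter, the edgeR adjusted p was 0.446, 0.257 and 0.179 in the same order. The limit given above for p-values with no filter was not checked for the fit with batch terms.

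Genes on lists built around the same families, which leave the members out, were called in both directions. Lower in effector than in resting cells were 1.33% of all genes in fl/fl, 6.58% in fl/+ and 6.5% in +/+. Of 3 tested Tec kinases besides Tec, 2 were lower in effector cells of fl/+ and of +/+, among them Txk, a T cell kinase. Txk was also higher in fl/fl (102 CPM) than in +/+ effector cells (55.7 CPM, log2 difference 0.85, SE 0.2, adjusted p = 0.0277) and than in fl/+ effector cells (47.6 CPM, 1.09, SE 0.19, adjusted p = 0.0248). Of 4 tested sodium pump genes besides Atp1b1, Atp1b3, another beta subunit, was lower in effector cells of all 3 genotypes and was higher in fl/fl (592 CPM) than in +/+ effector cells (366 CPM, 0.69, SE 0.17, adjusted p = 0.037).

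Of 4 tested genes of the insulin-like growth factor axis besides Igfbp4, 1 was lower in effector cells of fl/fl and of +/+, and 2 in fl/+. Igf2r, the receptor that clears IGF2, was lower in all 3 genotypes, with 141 CPM in effector and 264 CPM in resting +/+ cells (-0.89, SE 0.12, adjusted p = 3.9e-05). Igf1r, the signalling receptor, was lower in fl/fl (57 CPM) than in +/+ (74.6 CPM) over both states (-0.39, SE 0.1, adjusted p = 0.0395). Of 5 tested Ly6 family genes besides Ly6c1, Lypd6b was higher in fl/fl (7.31 CPM) than in +/+ effector cells (1.37 CPM, 2.2, SE 0.57, adjusted p = 0.0392). The 11 tested glutathione and leukotriene genes besides Ggt5 had a median difference of 0.13 between fl/fl and +/+ effector cells, the 4 genes listed with Dapk1 and Dapl1 one of -0.08, the 2 relatives of Cnn3 one of 0.18, the 5 Ly6 family genes one of 1.74, the 4 sodium pump genes one of 0.05, the 3 Tec kinases one of 0.3 and the 4 growth factor genes one of -0.1, against 0.01 over all genes. Some listed genes were higher in effector than in resting cells: 2 of the 4 genes listed with Dapk1 and Dapl1 in +/+ and 1 each in fl/fl and fl/+. In +/+ so were 2 of 11 glutathione and leukotriene genes, 1 of 5 Ly6 family genes and 1 of 4 sodium pump genes. Of all 10630 genes, 1009 were called higher in effector cells of +/+, 1033 of fl/+ and 533 of fl/fl, and nothing is read from these small counts. Eif4ebp1, on the list with Dap, had 21.8 CPM in effector and 12.9 CPM in resting +/+ cells (0.78, SE 0.19, adjusted p = 0.00738).

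Marker lists of the 2 states differed between the same groups. Both lists were chosen with earlier results of these data known, so the shares over all genes are not an independent background for them. Of 15 genes on a list of resting T cell markers, 3 were lower in effector than in resting cells of fl/fl, 10 in fl/+ and 11 in +/+, where 1.33%, 6.58% and 6.5% of all genes were. In fl/fl against +/+ effector cells 8 were higher, against 1.17% of all genes, among them Klf2, S1pr1 and Satb1. Over the list, the median of that difference was 0.68, against 0.01 over all genes. Klf2, a transcription factor of quiescent T cells, averaged 19.5 CPM in fl/fl and 5.56 CPM in +/+ effector cells (1.69, SE 0.39, adjusted p = 0.0238). Summed, the 15 genes had 3500 to 4810 CPM in fl/fl effector, 2420 to 3340 CPM in fl/+ effector and 2230 to 3310 CPM in +/+ effector libraries, and 5660 to 6270 CPM in all resting libraries. Of 15 effector Treg markers, 7 were lower in fl/fl than in +/+ effector cells, against 1.65% of all genes, among them Il10, Lag3, Prdm1 and Maf, and their sum was 529 to 1420 CPM in fl/fl, 1490 to 2020 CPM in fl/+ and 1720 to 2850 CPM in +/+ effector libraries. The part of these shifts in the members' differences was not tested.

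**Figure D4:**
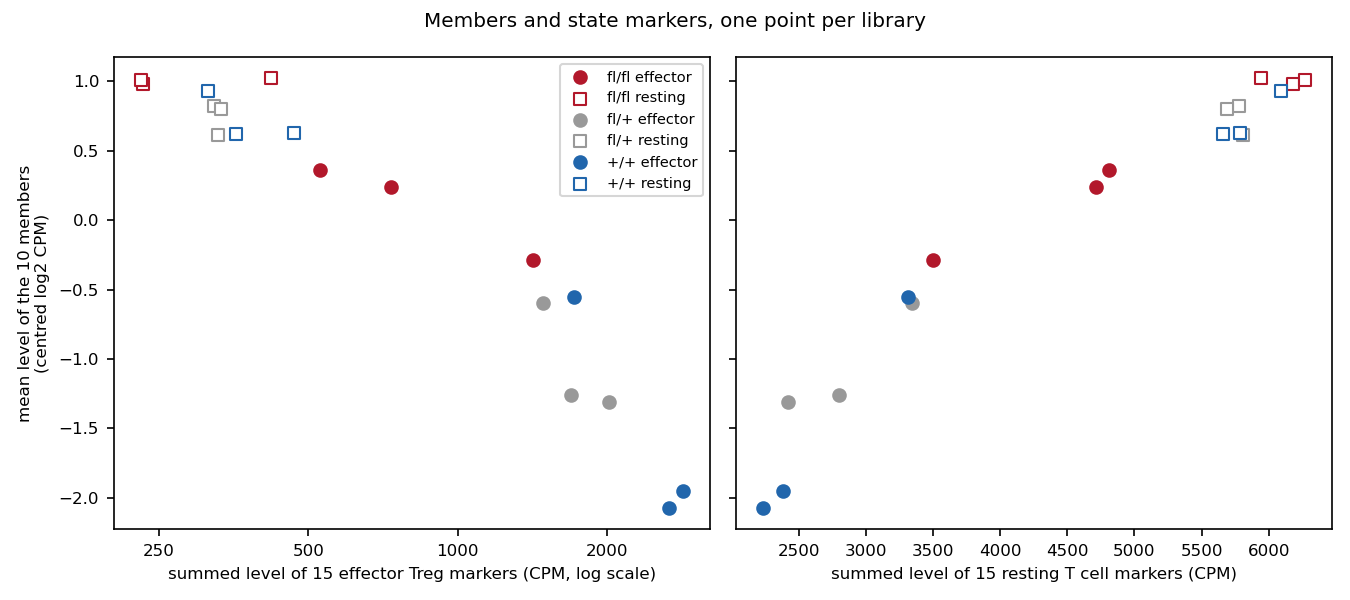
Mean level of the 10 genes in each library (vertical axis, log2 CPM centred on each gene's own mean) against the summed level of 15 effector Treg markers (left, log axis) and of 15 resting T cell markers (right), with a point per library. The fl/fl effector libraries lie between the resting libraries and most other effector libraries on all axes, at 0.36, 0.24 and -0.29, and the +/+ effector libraries at -0.55, -1.95 and -2.07.

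In each effector group, a library that stood apart in the members also had the highest or lowest effector marker sum. The first fl/fl effector library had the lowest level of 7 of the 10 genes in its group and the highest effector marker sum, 1420 CPM, against 529 and 735 CPM in the other 2. The third +/+ effector library had the highest level of 9 of the 10 genes and the lowest effector marker sum, 1720 CPM, against 2850 and 2670 CPM. The second fl/+ effector library had the highest level of 7 of the 10 genes and the lowest effector marker sum of its group, 1490 CPM, against 1690 and 2020 CPM. The sum of 10 proliferation genes was 360, 509 and 539 CPM in fl/fl effector, 219, 355 and 332 CPM in fl/+ effector and 129, 128 and 358 CPM in +/+ effector libraries, and its part in the members' values was not tested.

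The genes whose profiles over the 18 libraries were most like the members' were found by the root mean square difference of centred log2 CPM, over all tested genes. The mean profile of the 10 members was nearest to Gm15708, an intronic transcript in GENCODE (0.18), and to S1pr1, the receptor that lets lymphocytes leave lymph nodes (0.23). Gm15708 averaged 32.2 CPM in fl/fl effector, 14.5 CPM in fl/+ effector and 12.5 CPM in +/+ effector cells, and 53.9 to 61.6 CPM in the resting groups. Igfbp4 was nearest to Gm15708 (0.34), Cnn3 to Gm15708 and Adcy6 (0.43 each), Dapl1 to Adcy6 (0.56) and 2610019F03Rik (0.57), and Ggt5 to Adcy6 and Dapl1 (0.59 each). Adcy6, an adenylate cyclase, averaged 18 CPM in fl/fl effector, 6.05 CPM in fl/+ effector and 2.97 CPM in +/+ effector cells.

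Emid1 was nearest to Gpr146 (0.33), and Atp1b1 to Acss2 (0.29), an acetyl-CoA synthetase, and Satb1 (0.32), a chromatin organiser of T cells. Ly6c1 was nearest to 2 other members, Igfbp4 (0.72) and Cnn3 (0.73), and Dapk1 to Cnn3 (0.53) and Adcy6 (0.55). Tec and Zfp318 had different neighbours: Rtn4rl1 (0.29) and Arv1 (0.3) for Tec, and 4930524L23Rik (0.28) and Nhej1 (0.33) for Zfp318. These 2 and Ly6c1 were also the farthest from the mean profile of the 10, at 0.94 for Zfp318, 0.81 for Ly6c1 and 0.79 for Tec, while Cnn3 (0.36), Atp1b1 (0.39), Emid1 (0.39) and Igfbp4 (0.4) were the nearest.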

How the data were processed

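RNA-seq was done on 18 sorted mouse Treg libraries, 3 in each of 6 groups, lysed in TCL buffer and frozen, per the labels' protocols. Per the submitters' processing notes, the tools were RSEM 1.2.8, STAR 2.6.0 and bcl2fastq 2.17.1.14, and the build was mm10; the notes used here name no annotation, strand setting or filter. The main tests used the expected counts that the authors deposited per gene, as RSEM estimates them (29.4% of the nonzero values were not whole, at a tolerance of 0.001), rounded to whole numbers. The FPKM values that the authors deposited, scaled for gene length and depth, served for levels between genes and in 2 alternatives.

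The members and all gene lists were chosen with earlier results of these data known. Genes were kept by filterByExpr (10630 of 23420), scaled by TMM (factors 0.9394 to 1.063) and fitted across all genes as 6 group means with edgeR 4.0.16 (quasi-likelihood F test) in R 4.3.3, with Benjamini-Hochberg adjustment over all tested genes and a threshold of 0.05. "Called" means past that threshold, and a log2 difference is the fitted one. CPM uses the TMM-scaled library size, and log2 CPM a prior count of 2. The mean of both states weights the 2 states equally. The fit was tested on simulated data in which all genes had the same spread setting. That setting was below the estimated spread of Ly6c1, Dapk1, Dapl1, Igfbp4, Ggt5, Cnn3 and Emid1. The test therefore does not cover genes as variable as these. Named besides the members are Ly6c2, at most 4 called genes a list with the largest change (others only to complete a family), and the genes with the nearest profiles; some items these rules name are not reported here. Alternatives were DESeq2 1.42.0, limma 3.58.1 on log2(FPKM + 1) and log2(FPKM + 0.1), other scalings and filters, a batch block, and each library left out. Totals ran from 1658073 to 5756903 counts, and floors for a count of 0 (3 counts) cover counting error only.

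The labels call the replicate number a batch, so the numbers pair the samples. Deviations from the group means correlated between the states of the same genotype and number with a mean r of 0.25 (0.16 to 0.41 over 9 pairs across genes), and between genotypes with the same number with a mean of 0.07 (36 pairs).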

Additional observations from a re-analysis of the deposited data

How the results depend on the processing

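The number of genes called is the summary recomputed for each comparison. For fl/fl against +/+ effector cells, 299 genes were called, against 455 with DESeq2, 830 with no filter, 183 on log2(FPKM + 0.1) and 552 with the replicate block. For fl/fl against +/+ resting cells, 74 became 128 with DESeq2, 315 with no filter and 179 with the block. For fl/fl against fl/+ effector cells, 72 became 178 with DESeq2, 488 with no filter, 33 on log2(FPKM + 1), 14 on log2(FPKM + 0.1) and 181 with the block. For fl/fl against fl/+ resting cells, 3 became 6 with DESeq2 and 94 with no filter. For fl/+ against +/+ effector cells, 1 became 6 with DESeq2, 176 with no filter, 2 with a filter of 2 CPM, 2 on log2(FPKM + 1) and 34 with the block. For fl/+ against +/+ resting cells, 9 became 39 with DESeq2, 219 with no filter and 90 with the block. Over both states, fl/fl against +/+, 316 became 743 with no filter and 500 with the block, and fl/fl against fl/+, 51 became 148 with DESeq2, 418 with no filter, 26 on log2(FPKM + 1), 22 on log2(FPKM + 0.1) and 135 with the block. Between effector and resting fl/fl cells, 674 became 1012 with no filter, and for the batch number 175 became 267 with DESeq2, 770 with no filter and 113 on log2(FPKM + 0.1). With no filter, prior degrees of freedom were estimated as infinite over 19512 genes, and as 7.79 with the filter. The cause of the other shifts was not tested.

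With each library left out in turn, the count ran from 31 to 648 for fl/fl against +/+ effector cells, from 6 to 154 for resting cells and from 149 to 537 over both states. It ran from 3 to 310 for fl/fl against fl/+ effector cells, from 3 to 5 for resting cells and from 9 to 190 over both states. For fl/+ against +/+ it ran from 1 to 5 in effector and from 3 to 75 in resting cells, and for the batch number from 111 to 199. Between the states it ran from 266 to 791 in fl/fl, from 1092 to 1770 in fl/+ and from 1215 to 1729 in +/+. Calls between the states split as 533 higher and 141 lower in fl/fl, 1033 and 699 in fl/+ and 1009 and 691 in +/+, and on log2(FPKM + 1) as 662 and 54, 1233 and 401, and 1330 and 459.

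Among the members, Cnn3 and Atp1b1 were called in all 27 fits of fl/fl against +/+ in effector cells and over both states. Ggt5 was called in 24 and 22 of these and Igfbp4 in 23 and 4, and against fl/+ effector cells Emid1 and Atp1b1 were called in 23 and Cnn3 in 21. Most fits with a library left out dropped 1 from a group outside the comparison of effector cells. In fl/fl against +/+ effector cells, edgeR adjusted p with a library left out reached 0.0498 for Atp1b1 and 0.0317 for Cnn3. The replicate block changed no member's call other than those given with the results. With each library left out, the effector minus resting value ran from -0.72 to 0.07 for Igfbp4 in fl/fl (0.07 without fl/fl effector replicate 1), from -0.55 to 0.16 for Dapl1 in fl/fl (0.16 without fl/fl resting replicate 1) and from -0.3 to 0.04 for Tec in +/+ (0.04 without +/+ resting replicate 3). Dapl1, Dapk1 and Ggt5 each had 0 counts in at least 1 +/+ effector library, and Emid1 had 15 counts over the 3, so depth limits these values.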
